A study of Mus musculus with 24 samples.

Results

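Rhox5, Rhox6 and Rhox9 are homeobox genes of the X-linked Rhox cluster, and their RNA was followed in all 10 RNA libraries of the series. They are 3 of 42 annotated Rhox genes, among 53379 genes in the tables and 19470 that passed the filter on low counts. All 3 members passed it. They were found by gene ID in the RSEM gene tables, with symbols from GENCODE M21. The members were chosen by their measured levels in these same libraries: Rhox5 by its value at day 4 against day 0, and Rhox6 and Rhox9 by their values in the Smad2 and Smad3 knockouts. Their own differences are therefore given as descriptions with a standard error (SE) and no test, in every comparison.

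The libraries were made from mouse E14Tg2a.IV embryonic stem cells, in 5 groups of 2. Wild-type (WT) cells were taken at day 0, in the pluripotent state. Embryoid bodies, which are aggregates of stem cells that differentiate once the factor LIF is left out of the medium, were taken at day 4 from WT cells, Smad2 knockout (S2KO) cells, Smad3 knockout (S3KO) cells and Smad2/3 double knockout (DKO) cells. All 3 knockout groups were sampled at day 4 only, so day 0 levels are known for WT alone. SMAD2 and SMAD3 carry Nodal and Activin signals from the receptor to the nucleus. File names give 1 line number for each knockout, so the effect of a knockout cannot be told apart from that of its line. Whether 2 libraries with the same label come from independent cultures is not stated, so the p-values cover only their spread, which may be technical.

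Genes of the Rhox cluster encode homeodomain transcription factors of reproductive tissues: placenta, germ cells, the Sertoli cells of the testis and the epididymis. Rhox5, also known as Pem, is present in embryonic stem cells and in extraembryonic tissue, and in the adult testis and epididymis it is driven from separate promoters. Rhox6 and Rhox9 are sister genes that are best known from the placenta. In cells of the embryo proper the cluster is known to be held silent by DNA methylation.

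The cluster spans 1092 kb of the X chromosome. Rhox5 (ENSMUSG00000095180.8) lies at chrX:37804842-37808876 on the plus strand of mm10, Rhox6 (ENSMUSG00000006200.3) at chrX:37826910-37829857 on the plus strand, and Rhox9 (ENSMUSG00000068048.8) at chrX:37899097-37901770 on the minus strand. No other annotated gene overlaps any of these 3 genes, so the missing information on the strand of counting does not touch them.

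Rhox6 and Rhox9 are near copies, which bears on how far their counts can be told apart. Their coding sequences have 681 bases each and align without a gap, with 617 identical bases (90.6%). In the coding sequence the longest run without a mismatch is 161 bases. The stretch below, 120 bases from coding position 167 to 286, is shown because a read from inside it fits either gene; it lies at chrX:37827450-37827569 (plus strand) in Rhox6 and at chrX:37901208-37901327 (minus strand) in Rhox9, within 1 exon of each.
Rhox6 and Rhox9, identical: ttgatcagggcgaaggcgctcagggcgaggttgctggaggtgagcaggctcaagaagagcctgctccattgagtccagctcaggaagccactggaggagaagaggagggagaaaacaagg
The least alike stretch of that length, from coding position 343 to 462, is shown because its 24 mismatches, in capitals, are where reads separate the genes. It lies at chrX:37827626-37827745 in Rhox6 and at chrX:37901032-37901151 in Rhox9.
Rhox6: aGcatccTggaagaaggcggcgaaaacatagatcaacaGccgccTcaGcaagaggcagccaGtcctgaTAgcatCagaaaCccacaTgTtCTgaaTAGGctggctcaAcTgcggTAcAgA
Rhox9: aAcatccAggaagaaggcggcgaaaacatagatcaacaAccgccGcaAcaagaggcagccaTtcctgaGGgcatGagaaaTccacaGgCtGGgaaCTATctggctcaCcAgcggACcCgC
Of the 50-base words in Rhox6 transcripts, 16.5% also occur in another gene, and that gene is Rhox9 alone. Of the 50-base words of Rhox9, 6.3% occur in Rhox6 and in no other gene. Rhox5 shares no 50-base word with any gene, and its coding sequence (639 bases in the annotated model, which is incomplete at its 5′ end) matches 62.5% of the bases aligned with Rhox6 and 65.0% of those aligned with Rhox9.

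The counts carry the trace of this sharing. RSEM divides a read that fits several genes between them, and the expected counts of Rhox6 and of Rhox9 were whole in 1 of 10 libraries each (within 0.02 of a whole number). Their sum was whole in 10 of 10 libraries, from 113.0 counts in WT day 4 replicate 1 to 18875.0 in DKO replicate 2. Rhox5 counts were whole in 10 of 10 libraries. A second transcript of Rhox9, of 2422 bases against 882, made up 0.0 to 1.58% of its estimated transcripts, so almost all Rhox9 reads were assigned to the short form.

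The promoter of Rhox5 is shown because its CG pairs, in capitals, are the letters at which DNA methylation can sit. The window is the 250 bases before the RefSeq start of Rhox5 on GRCm38.p6, chrX:37754358-37754607 on the plus strand.
Rhox5: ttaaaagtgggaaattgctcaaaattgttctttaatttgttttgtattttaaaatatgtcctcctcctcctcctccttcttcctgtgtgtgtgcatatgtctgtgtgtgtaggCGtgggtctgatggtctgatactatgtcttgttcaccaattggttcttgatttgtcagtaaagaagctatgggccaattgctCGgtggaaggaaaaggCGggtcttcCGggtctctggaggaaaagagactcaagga
It holds 4 CG pairs, where the median over 32851 mouse promoter windows of this length was 6.0 and 92.1% held at least 1. The SMAD core motif CAGAC, searched on both strands, occurred 3 times there and at least once in 42.2% of all windows. The FOXH1 motif AATNCACA (in 3.2% of all windows) and the GATA motif GATAA (in 22.6%), on both strands, did not occur in it. Of the 28 Rhox genes with a window, 27 held a CG, with a median of 4.5 (range 0 to 10), 10 held CAGAC, 2 AATNCACA and 9 GATAA. Rhox6 and Rhox9 had no window, so this says nothing of their promoters. Apart from Rhox5, Rhox10 and Rhox12, the windows with CAGAC were all those of Rhox2 copies, which are much alike. The RefSeq start lies 50234 bases before the GENCODE start used for the counts, and 50000 of the bases in between are unknown bases of the assembly. The window is thus tied to the RefSeq model, and binding there was not analysed here.

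Levels are given in CPM (counts scaled to 1 common TMM-adjusted library total) for comparisons between libraries, and in TPM (the authors' length-scaled values) for comparisons between genes; errors are SD over n = 2. In bulk RNA, fewer cells of a type and less RNA per cell cannot be told apart. The libraries held 35733249 to 53672980 expected counts. File names fall into 2 name series, of which the second holds replicate 2 of every group but DKO, whose libraries are both in the first; the labels give no batch. The targeted RNA checked the labels in part: Smad2 stood at 20.5 ± 2.0 CPM at day 0, 44.1 ± 8.2 in WT day 4, 38.8 ± 0.71 in S3KO, 19.8 ± 0.80 in S2KO and 22.4 ± 0.34 in DKO, and Smad3 at 9.38 ± 1.1, 43.4 ± 2.0, 49.2 ± 0.68, 30.9 ± 0.15 and 26.8 ± 1.6. Smad3 RNA was thus not lower in the libraries labelled S3KO, so it checks nothing there, and S3KO and DKO are the labels' names throughout. Of the 19470 tested genes, 5622 were called higher and 4517 lower at day 4 than at day 0 (6887 and 3306 with library totals, 7098 and 1487 with log2(TPM + 1), 7179 and 1464 with log2(TPM + 0.1)), 2993 and 3911 in S2KO (2126 and 4808, 800 and 6168, 819 and 6132), 84 and 24 in S3KO (173 and 18, 97 and 6, 52 and 2), and 2105 and 2401 in DKO (2429 and 1894, 2046 and 1021, 1822 and 921). The balance of directions over all genes thus depended on the scaling, and values on the TPM scales are read beside the median of all genes there.

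Rhox5 was the steadiest of the genes and the only one of them that was well expressed in every group. It stood at 38.4 and 29.1 CPM in the day 0 libraries, 20.2 and 19.2 in WT day 4, 20.3 and 18.4 in S3KO, 24.97 and 46.6 in S2KO, and 71.4 and 82.5 in DKO. Both DKO libraries stood above all others, S3KO overlapped WT day 4, and the S2KO libraries lay on both sides of day 0. In order of mean, S3KO (19.3 ± 1.3) and WT day 4 (19.7 ± 0.70) did not differ beyond their spread, nor did day 0 (33.8 ± 6.6) and S2KO (35.8 ± 15), and DKO (77.0 ± 7.9) stood highest.

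Rhox6 was low in WT day 4 and high without Smad2. It stood at 9.35 and 5.71 CPM in the day 0 libraries, 1.74 and 2.09 in WT day 4, 7.82 and 7.53 in S3KO, 124 and 67.2 in S2KO, and 190 and 260 in DKO. WT day 4 lay below every other library and both DKO libraries lay above every other. In order of mean, WT day 4 (1.92 ± 0.25) was lowest, day 0 (7.53 ± 2.6) and S3KO (7.67 ± 0.21) overlapped, and S2KO (95.7 ± 40) and DKO (225.0 ± 49) followed without overlap. Among all genes ordered by TPM, Rhox6 ranked 11268 and 11093 in the WT day 4 libraries, 884 and 1512 in S2KO, and 344 and 261 in DKO.

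Rhox9 followed Rhox6 at a lower level. It stood at 6.81 and 4.42 CPM at day 0, 0.846 and 1.17 in WT day 4, 4.31 and 4.32 in S3KO, 71.1 and 39.8 in S2KO, and 132 and 178 in DKO. WT day 4 was again lowest (1.0 ± 0.23) and DKO highest (155 ± 33). In CPM, S3KO (4.31 ± 0.0074) lay below both day 0 libraries (mean 5.62 ± 1.7), though the gap to the nearer one was smaller than the day 0 spread. In TPM, S3KO lay above both day 0 libraries.

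**Figure D1:**
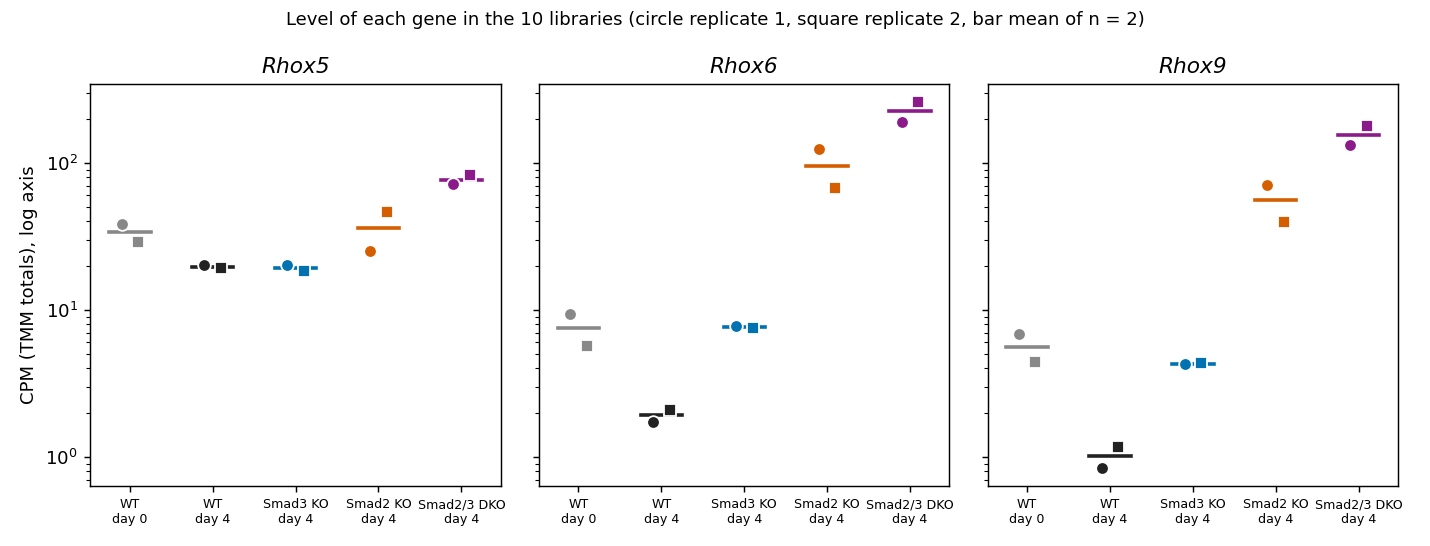
Level of Rhox5, Rhox6 and Rhox9 in CPM on a log axis, for the 5 groups on the x axis; points are libraries (circle replicate 1, square replicate 2) and bars are means of n = 2. Rhox6 and Rhox9 share 1 profile, lowest in WT day 4 and highest in DKO, while Rhox5 stays between 18.4 and 82.5 CPM.

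Between day 0 and day 4 of WT, all 3 genes stood lower at day 4 in CPM, with no overlap of libraries (35.7% of the tested genes were lower without overlap). The log2 difference was -0.78 (SE 0.28) for Rhox5, -1.97 (SE 0.35) for Rhox6 and -2.48 (SE 0.36) for Rhox9. The Rhox5 value had no stable sign: in TPM it stood at 46.8 and 49.4 at day 0 against 51.5 and 50.1 at day 4, its log2 difference was 0.08 on both TPM scales, and with an offset for transcript length it was 0.42. Rhox6 and Rhox9 kept the sign on these scales with smaller values, -0.90 and -1.25 with log2(TPM + 1). Other scalings moved the median log2 difference of all genes in this comparison, from 0.1 with TMM to 0.38 with library totals and 0.63 with log2(TPM + 1).

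In S2KO against WT at day 4, Rhox6 stood 49.97-fold and Rhox9 55.2-fold higher, log2 differences of 5.64 (SE 0.39) and 5.78 (SE 0.39). Rhox5 stood 1.82-fold higher (0.86, SE 0.28). All 3 stood above WT without overlap in CPM (as did 30.4% of the tested genes). For Rhox5 this depended on the scale: the S2KO libraries held 40.2 and 78.5 TPM against 51.5 and 50.1 in WT, and the log2 difference was 0.14 with log2(TPM + 1) and -0.11 with the length offset. On the log2(TPM + 1) scale the values of Rhox6 and Rhox9 were 4.52 and 4.49, where the median of all genes was -0.51.

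The S2KO libraries differed between themselves in opposite ways. Replicate 1 held more Rhox6 and Rhox9 (124 and 71.1 CPM against 67.2 and 39.8 in replicate 2) and less Rhox5 (24.97 against 46.6). Within the first name series the S2KO library stood above its WT partner by 0.31 for Rhox5, 6.16 for Rhox6 and 6.39 for Rhox9 on the log2 scale, and within the second by 1.28, 5.01 and 5.10. Rhox6 and Rhox9 were thus high in each series, and the size of the Rhox5 difference came from the second.

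In S3KO against WT at day 4, Rhox6 stood 4.01-fold and Rhox9 4.29-fold higher (log2 differences 2.00, SE 0.35, and 2.10, SE 0.36), 2 of the 3 genes above WT without overlap (21.7% of the tested genes). Rhox5 overlapped WT (-0.03, SE 0.28), and its sign turned to positive with library totals, the stricter filter, the compared groups alone, both TPM scales, or without WT day 4 replicate 1 or S3KO replicate 2 (0.01 to 0.13). Within the name series the values were 2.17 and 1.85 for Rhox6, and 2.35 and 1.89 for Rhox9. In CPM these S3KO levels lay near those of WT day 0: the ratio of means to day 0 was 1.02 for Rhox6 and 0.77 for Rhox9. In TPM both genes stood above day 0 without overlap. Rhox6 held 14.4 and 13.7 TPM in S3KO against 7.92 and 6.21 at day 0, and Rhox9 9.08 and 9.06 against 6.72 and 5.67.

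In DKO against WT at day 4, Rhox6 stood 117.5-fold, Rhox9 154.0-fold and Rhox5 3.91-fold higher, with log2 differences of 6.88 (SE 0.41), 7.26 (SE 0.41) and 1.97 (SE 0.29). All 3 lay above WT without overlap (28.7% of the tested genes). Against the 1 WT library of their own name series the DKO libraries gave 7.02, 7.52 and 1.93. Over 20 alternative settings the Rhox5 value stayed between 1.85 and 2.17, so this is the comparison in which Rhox5 stood apart from WT on every scale run. Compared with day 0 in place of day 4, the DKO means in CPM were 29.9-fold (Rhox6), 27.6-fold (Rhox9) and 2.28-fold (Rhox5) of the WT means. The gap to day 0 was wider in TPM. There the DKO means were 437.7, 350.6 and 229.4, and the day 0 means 7.065, 6.195 and 48.08, in the same order of genes.

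The knockouts also differed from each other. S2KO stood above S3KO by 3.64 (SE 0.35) for Rhox6 and 3.68 (SE 0.34) for Rhox9 on the log2 scale, and by 0.89 (SE 0.28) for Rhox5, whose value was 0.02 with log2(TPM + 1) and -0.04 with the length offset. DKO stood above S2KO by 1.10 (SE 0.28), 1.23 (SE 0.32) and 1.48 (SE 0.31) for Rhox5, Rhox6 and Rhox9. The step from S2KO to DKO was larger on the length-scaled values, 2.01, 2.14 and 2.36 with log2(TPM + 1). On that scale the median of all genes against WT day 4 was -0.51 in S2KO, 0.04 in S3KO and 0.13 in DKO. The log2(TPM + 1) values of contrasts with S2KO thus hold a shift of all genes too. DKO stood above S3KO by 2.00 (SE 0.29), 4.87 (SE 0.37) and 5.17 (SE 0.37). In all 3 contrasts the 3 genes were higher without overlap (33.9% of the tested genes in the first, 37.5% in the second and 34.5% in the third). These contrasts share libraries with each other, and the knockout comparisons all share the WT day 4 libraries.

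Per length, Rhox5 and Rhox6 traded places. Rhox5 was above Rhox6 in TPM in all day 0, WT day 4 and S3KO libraries, by 3.90-fold to 16.8-fold. In S2KO replicate 2 the genes stood at 78.5 and 69.6 TPM, and in S2KO replicate 1 and both DKO libraries Rhox6 was above Rhox5 by 1.72-fold to 3.40-fold. The TPM of the 3 genes together went from 56.0 to 56.3 in WT day 4 to 874 and 1162 in DKO.

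The level of Rhox6 relative to Rhox9 moved within a narrow range. The TPM ratio of Rhox6 to Rhox9 was 1.18 and 1.10 at day 0, 1.78 and 1.52 in WT day 4, 1.59 and 1.51 in S3KO, 1.49 and 1.43 in S2KO and 1.24 and 1.25 in DKO. Rhox6 was the higher of the pair in 10 of 10 libraries. Over the 10 libraries log2 CPM of Rhox6 and Rhox9 had a Pearson r of 0.998 and a Spearman rho of 0.952. Rhox5 had an r of 0.799 with Rhox6 and 0.823 with Rhox9. These are descriptions: the libraries fall in 5 groups, the genes share each library, and Rhox6 and Rhox9 share reads.

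**Figure D2:**
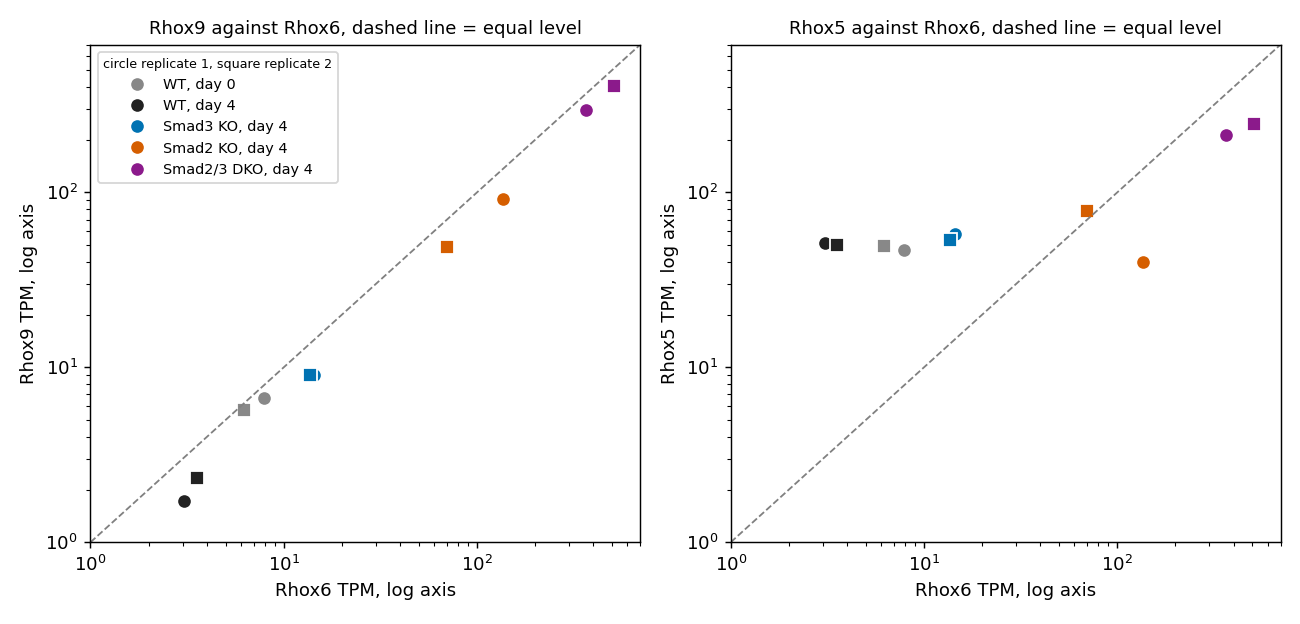
TPM of Rhox9 (left) and Rhox5 (right) against TPM of Rhox6 in each of the 10 libraries, on log axes, with a dashed line of equal level. Rhox9 runs parallel to Rhox6 just under the line, while Rhox5 is above Rhox6 in 7 libraries and below it in S2KO replicate 1 and both DKO libraries.

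The rest of the cluster was read from genes that the choice of members did not use. Of 39 other annotated Rhox genes, 11 had no count in any library and 12 passed the filter on low counts. Rhox4b, Rhox4d and Rhox12 reached 10 counts in DKO libraries only, and Rhox4a in both DKO libraries and 1 other. Rhox4g and Rhox4a2 reached it in S2KO and DKO libraries only. These genes passed the filter through the groups where they were high. No DKO test of them is thus given, nor an S2KO test of Rhox4g and Rhox4a2, and a count over the tested genes supports nothing by itself. Most of the 12 are near copies: 91.1% of the 50-base words of Rhox2a and 93.7% of those of Rhox4b occur in copies of their own subfamily, whereas Rhox1, Rhox10, Rhox12 and Rhox13 share none. The tests below are edgeR's quasi-likelihood F test, with Benjamini-Hochberg adjustment over all 19470 genes.

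Rhox13, a single-copy gene known from germ cells, was the most highly expressed of them. It stood at 10.8 and 7.14 CPM at day 0, 0.938 and 1.09 in WT day 4, 2.42 and 3.41 in S3KO, 4.03 and 3.59 in S2KO and 7.14 and 5.17 in DKO. It fell by 3.14 on the log2 scale from day 0 to day 4 (SE 0.34, adjusted p = 0.000149), and rose against WT day 4 in S2KO (1.90, SE 0.33, adjusted p = 0.00341) and in DKO (2.60, SE 0.33, adjusted p = 0.000744). These calls held in all 20 alternatives. In S3KO the difference of 1.52 (SE 0.33, adjusted p = 0.0767) was not called. Its order of groups at day 4 was that of Rhox6 and Rhox9 in CPM, though not in TPM (6.39 in S3KO and 4.89 in S2KO). Its mean in DKO stood below that at day 0 in CPM (6.16 and 8.96) and above it in TPM (14.2 and 10.1).

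Rhox1, another single-copy gene, stood at 2.72 and 1.48 CPM at day 0, 0.297 and 0.309 in WT day 4, 0.555 and 0.395 in S3KO, 1.01 and 1.41 in S2KO and 0.955 and 0.905 in DKO. It fell by 2.78 (SE 0.44, adjusted p = 0.000925) from day 0 to day 4. It rose in S2KO (1.99, SE 0.44, adjusted p = 0.00875) and in DKO (1.61, SE 0.44, adjusted p = 0.0274). The S2KO call was lost with the length offset (adjusted p = 0.104) and when only the compared groups were fitted (0.0514), and the DKO call without either DKO library (0.116 and 0.0959) or either WT day 4 library (0.073 and 0.0633).

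Rhox12, also single-copy, had 0 counts in all day 0, WT day 4 and S3KO libraries, 2 and 0 in S2KO, and 57 and 30 in DKO. Against a floor of 3 counts over both WT day 4 libraries it was at least 27.3-fold higher in DKO, given with no test because it passed the filter through DKO alone. Rhox10 had 66 and 57 counts at day 0, 3 and 0 in WT day 4 and 8 to 17 in the knockout libraries. Its fall from day 0 to day 4 was called (adjusted p = 0.000513, a ratio of 49.2 with a 95% exact counting interval of 16.5 to 242). Its rise was called in S2KO (ratio 6.42, 1.89 to 33.9, adjusted p = 0.0427) and in DKO (ratio 6.89, 2.07 to 36.0, adjusted p = 0.0485), and these calls stood in 4 and 5 of 16 alternatives. Each was lost, for example, without WT day 4 replicate 2 (adjusted p = 0.116 and 0.123). In S3KO the ratio was 9.03 (2.78 to 46.5), not called (adjusted p = 0.124). Such intervals cover counting error only.

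Because reads divide between near copies, the copies of a subfamily were also summed and fitted as 1 gene, an alternative chosen after seeing the data. The Rhox4 copies together stood at 0.149 and 0.158 CPM at day 0, 0.252 and 0.475 in WT day 4, 0.244 and 0.370 in S3KO, 2.07 and 2.88 in S2KO and 6.17 and 8.63 in DKO. They were not called in S3KO (log2 difference -0.24, adjusted p = 0.826). The Rhox4 difference was 2.76 (SE 0.41) in S2KO and 4.34 (SE 0.43) in DKO. Both are given with no test, because the sum includes copies that passed the filter through these groups. These are Rhox4g and Rhox4a2, and for DKO also Rhox4a, Rhox4b and Rhox4d. From day 0 to day 4 the Rhox4 copies were not called (1.22, SE 0.50, adjusted p = 0.0654), while the Rhox2 copies fell by 3.80 (SE 0.48, adjusted p = 0.000305), from 1.01 ± 0.13 to 0.070 ± 0.0019 CPM. The Rhox2 copies rose in all 3 knockouts, by 2.19 in S2KO (SE 0.51, adjusted p = 0.0105), 3.69 in S3KO (SE 0.48, adjusted p = 0.0202) and 4.41 in DKO (SE 0.48, adjusted p = 0.000307). These rises rest on 3 counts in each WT day 4 library. In S3KO most of the summed counts (39.0 and 43.0) were those of Rhox2a (32.4 and 34.3), whose own call was lost in several alternatives given below. The Rhox7 copies fell from day 0 to day 4 by 2.76 (adjusted p = 0.00736) and were not called in a knockout (adjusted p 0.0518 to 0.54).

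**Figure D3:**
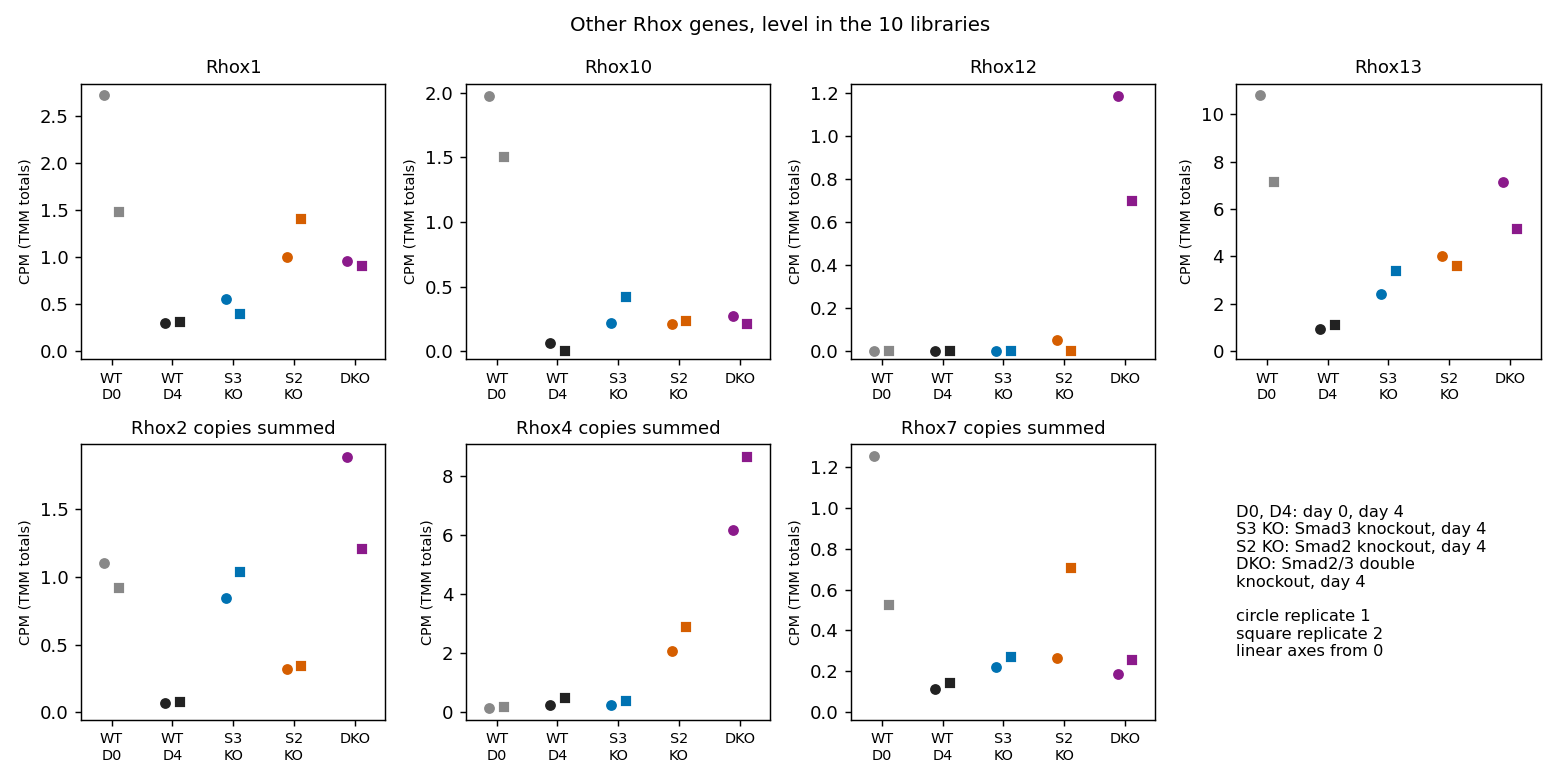
CPM of 4 single-copy Rhox genes and of 3 summed Rhox subfamilies in each of the 10 libraries, on linear axes from 0, with groups on the x axis. Rhox1, Rhox10, Rhox13 and the Rhox2 and Rhox7 copies are high at day 0 and low in WT day 4, while Rhox12 and the Rhox2 and Rhox4 copies are highest in DKO.

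Counted gene by gene, 1 of the other Rhox genes was called higher at day 4 than at day 0 (Rhox4e; 28.9% of all tested genes were called higher) and 4 lower (Rhox1, Rhox2a, Rhox10 and Rhox13; 23.2%). Against WT day 4, 6 were called higher in S2KO (15.4%), 1 in S3KO (Rhox2a, 0.431%) and 9 in DKO (10.8%). Another limit is that 4 of the 9 are the genes that passed the filter through DKO. Rhox4g, among both the 6 and the 9, passed it through S2KO and DKO, so for these genes the counts support nothing. None of the other Rhox genes was called lower in a knockout by edgeR, also at an unadjusted p under 0.05 (0 genes) and by DESeq2 (0 genes). Rhox2a, Rhox4a, Rhox4b, Rhox4d, Rhox4g, Rhox10 and Rhox12 held only 0 to 3 counts over both WT day 4 libraries. These genes could not have been called lower, so the lack of such calls supports nothing for them. Rhox2a had 1 count over both WT day 4 libraries and 66 over both S3KO libraries, a ratio of 66.2 (95% exact counting interval 11.5 to 2653, adjusted p = 0.0215). Fitting the compared groups alone lost that call (adjusted p = 0.21), as did leaving out any library of day 0, S3KO or DKO (0.0549 to 0.133). Rhox4b had 0 counts in WT day 4 and 135 in DKO, at least 42.3-fold higher, and Rhox4a 0 and 120, at least 37.6-fold higher, both given with no test. The Rhox4e call at day 4, at least 4.72-fold against 0 counts at day 0, was lost without WT day 4 replicate 2 or either day 0 library.

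Around the cluster, 22 tested protein-coding genes lie within 1 Mb of its ends or between its members. Their calls went both ways: 4 higher and 3 lower in DKO (10.8% and 12.3% of all tested genes), and 5 higher and 4 lower in S2KO (15.4% and 20.1%). In DKO, Lonrf3, a RING finger gene, rose by 4.08 (SE 0.31, adjusted p = 5.7e-05), Gm9, the nearest gene outside the first Rhox gene, rose by 4.12 (SE 0.49, adjusted p = 0.000491), and Sept6, a septin, fell by 1.79 (SE 0.16, adjusted p = 0.000133). In S2KO, Gm9 rose by 3.35 (SE 0.48, adjusted p = 0.00177), the ubiquitin-conjugating enzyme gene Ube2a rose by 1.26 (adjusted p = 0.00195), and Zbtb33, the gene of the methyl-CpG-binding protein Kaiso, fell by 1.74 (adjusted p = 0.00457). The Ube2a call was lost on both TPM scales and with the length offset, and the Zbtb33 call with the length offset. In S3KO none of the 22 was called by edgeR (0.431% of all tested genes were called higher and 0.123% lower), 5 had an unadjusted p under 0.05, and DESeq2 called 1. The median log2 difference of the neighbours was 0.0 in DKO, 0.29 in S2KO and -0.16 in S3KO, beside -0.05, -0.01 and -0.04 over all genes.

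**Figure D4:**
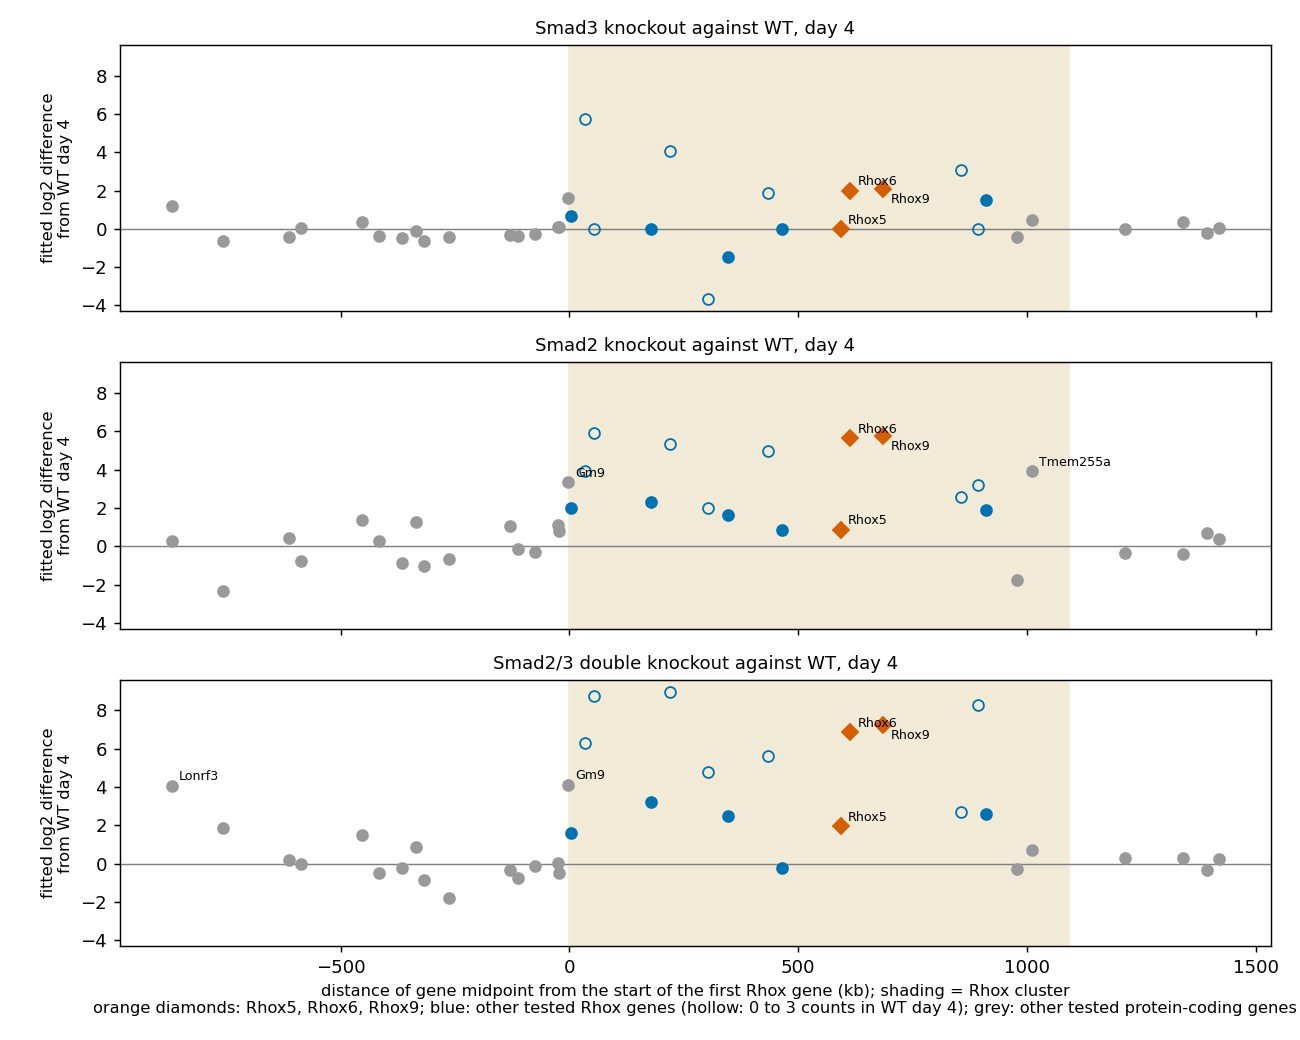
Fitted log2 difference from WT day 4 (y axis) of the tested Rhox genes and of the protein-coding genes around them, by distance in kb from the start of the first Rhox gene (x axis), in the 3 knockouts. Shading marks the Rhox cluster; hollow points had 0 to 3 counts in WT day 4, so their height depends on the fit and is no bound, and the neighbours lie on both sides of 0.

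Over the X chromosome as a whole, with 733 tested genes, the median log2 difference was -0.02 in DKO, -0.32 in S2KO and -0.17 in S3KO. Of them 158 were called higher and 138 lower in DKO (10.8% and 12.3% of all tested genes), 92 and 209 in S2KO (15.4% and 20.1%) and 11 and 3 in S3KO (0.431% and 0.123%), so in DKO X-linked genes were called in both directions at higher shares than all genes. Levels of sex-chromosome RNA differed between the groups. Xist, the RNA that coats the inactive X, stood at 0.613 ± 0.064 CPM at day 0, 5.94 ± 2.2 in WT day 4, 3.64 ± 0.29 in S3KO, 2.75 ± 0.90 in S2KO and 89.2 ± 21 in DKO; without strand its reads cannot be told apart from those of its antisense gene Tsix. The Y-linked gene Eif2s3y stood at 63.2 ± 17 CPM in WT day 4, 25.9 ± 1.0 in S3KO, 0.0320 ± 0.045 in S2KO and 0.633 ± 0.90 in DKO. Their part in the Rhox levels was not tested.

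Other X-linked genes of reproductive tissue, a list of 22 symbols with 17 tested, were compared with the Rhox genes. In DKO 14 rose and 1 fell (10.8% and 12.3% of all tested genes), at a median log2 difference of 4.57, and the list's median was 1.82 in S3KO and -0.53 in S2KO. Xlr3a rose from 4.90 to 117 CPM (4.57, SE 0.24, adjusted p = 1.49e-05), Xlr3c by 6.23 and Xlr4b by 6.57 (both adjusted p = 1.49e-05); these are lymphocyte-regulated X-linked genes of germ cells, with near copies of their own, so the split between them is uncertain. Tex16, a testis gene, fell by 2.52 (adjusted p = 0.0216), a call lost without either DKO library or WT day 4 replicate 1, by DESeq2 and with these groups fitted alone. In S3KO 6 were called higher (0.431% of all tested genes) and 0 lower by edgeR (0 lower at an unadjusted p under 0.05, and 0 by DESeq2), among them Xlr3a (2.28, adjusted p = 0.00735), Xlr4b (3.82, adjusted p = 0.00735) and Xlr5b (2.32, adjusted p = 0.0111). All 3 lost their calls when S3KO and WT day 4 were fitted alone, and Xlr3a and Xlr5b also without either S3KO library. S2KO gave other values: the placental genes Esx1 (3.74, adjusted p = 0.000246) and Plac1 (4.73, adjusted p = 0.000799) rose, while Xlr5b fell by 1.88 (adjusted p = 0.00334), so that 2 were called higher and 4 lower (15.4% and 20.1%). Fitting S2KO and WT day 4 alone, or log2(TPM + 1), lost the Xlr5b call. In S2KO, where Rhox6 stood at 95.7 CPM, Xlr3a stood at 3.07 CPM, below its 4.90 in WT day 4 (-0.68, adjusted p = 0.0385, called in 10 of 20 alternatives).

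The DNA methylation and H3K9 methylation machinery was examined because this is the known way in which the cluster is silenced. From day 0 to day 4 of WT, 11 of 24 genes were called higher and 5 lower (28.9% and 23.2% of all tested genes). Dnmt3b, a de novo DNA methyltransferase, rose from 221 to 1373 CPM (2.63, SE 0.19, adjusted p = 3.07e-05), Tet3, which oxidises methylcytosine, rose by 2.39 (adjusted p = 6.32e-05), and Dnmt3l, the cofactor of the de novo enzymes, fell by 2.30 (adjusted p = 0.000202). In S2KO 3 were called higher and 12 lower (15.4% and 20.1% of all tested genes), with Dnmt3b at 314 CPM (-2.13, SE 0.18, adjusted p = 0.000332), Dnmt3a lower (-1.40, adjusted p = 0.00127) and Dnmt3l higher (1.67, adjusted p = 0.00236). In DKO 6 were called higher and 8 lower (10.8% and 12.3%), with Dnmt3b at 205 CPM (-2.74, SE 0.19, adjusted p = 3.5e-05), the methyl-CpG reader Mbd2 higher (1.89, adjusted p = 0.000766) and Dnmt3a lower (-1.14, adjusted p = 0.00228). In S3KO edgeR called Dnmt3b alone, at 620 CPM (-1.15, SE 0.18, adjusted p = 0.0351), a call lost in 10 of 20 alternatives; 10 genes had an unadjusted p under 0.05, and DESeq2 called 3. At day 4 the order of the groups by Dnmt3b, from WT through S3KO and S2KO to DKO, was the reverse of their order by Rhox6 and by Rhox9. Day 0 did not follow it, with 221 CPM of Dnmt3b and Rhox6 at 7.53. Other genes of the list had other orders at day 4: Dnmt3a stood at 70.8 CPM in S2KO and 84.6 in DKO, and Dnmt1 was highest in DKO (318 CPM). The order of Dnmt3b was also that of Fgf5 and Sall2, markers of the primed epiblast outside this list. Fgf5 stood at 161 CPM in WT day 4, 73.6 in S3KO, 38.0 in S2KO and 2.56 in DKO. The list's median was 0.30 from day 0 to day 4, -0.69 in S2KO, -0.41 in S3KO and -0.20 in DKO. Methylation itself was not analysed here, and the part of these genes in the Rhox levels was not tested.

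Germline genes known to be silenced by methylation in the embryo were followed as a second list of 20 tested genes. From day 0 to day 4 of WT, 11 were called lower and 1 higher (23.2% and 28.9% of all tested genes): Syce1, a synaptonemal complex gene, fell by 2.19 (adjusted p = 8.35e-05), Hormad1, a meiotic chromosome gene, by 2.78 (adjusted p = 9.93e-05), and Tdrd1, a piRNA pathway gene, rose by 1.11 (adjusted p = 0.023, lost without WT day 4 replicate 1 or either day 0 library and with the length offset). In DKO 8 were called higher (10.8% of all tested genes) and 0 lower by edgeR (2 lower at an unadjusted p under 0.05, and 1 by DESeq2), among them the germ cell regulator Sohlh2 (1.37, adjusted p = 0.00119), Fkbp6 (2.27, adjusted p = 0.00247) and Stk31 (1.39, adjusted p = 0.00249). In S2KO 4 were called higher and 1 lower (15.4% and 20.1%, so the share called higher lay near that of all genes), with the testis tubulin Tuba3a higher (2.65, adjusted p = 0.0022) and Tdrd1 lower (-1.16, adjusted p = 0.0286, lost without S2KO replicate 1 or WT day 4 replicate 1, with these groups fitted alone and with the length offset). In S3KO none was called by edgeR (5 at an unadjusted p under 0.05, 0 by DESeq2). The median log2 difference of the list was 0.61 in DKO, 0.27 in S2KO and 0.23 in S3KO. Fitted values for Rhox6 and Rhox9 in the same comparisons were 2.00 to 7.26.

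The androgen receptor and members of the GATA, ETS and SP families, which are linked to Rhox5, formed a list of 16 tested genes. The link is to the families, and not every gene listed is known to act on Rhox5. From day 0 to day 4 of WT 8 rose (28.9% of all tested genes were called higher) and none fell by edgeR (0 at an unadjusted p under 0.05, 0 by DESeq2), led by Gata6 (5.72, adjusted p = 1.59e-05) and Gata4 (5.04, adjusted p = 3.02e-05), which are endoderm regulators. In S2KO Gata6 fell by 3.32 (adjusted p = 0.000332), Gata4 fell by 3.05 (adjusted p = 0.000628) and Gata2, a trophoblast and blood regulator, rose by 4.02 (adjusted p = 0.000931), with 4 called higher and 8 lower in all (15.4% and 20.1%). In DKO 6 were called higher and 3 lower (10.8% and 12.3%): Gata2 rose from 0.963 to 117 CPM (6.93, SE 0.53, adjusted p = 5.7e-05) and Gata3 by 5.40 (adjusted p = 6.24e-05). Elf5, also among the 6, stood 5.31 higher. It is given with no test because it was near 0 in WT (0.058 CPM at day 4 and 0.068 at day 0). In S3KO edgeR called Gata3 alone (2.34, adjusted p = 0.039), a call lost in 10 of 20 alternatives, while DESeq2 called 2 genes of the list. The list's median was 1.18 from day 0 to day 4, -0.54 in S2KO, 0.07 in S3KO and 0.13 in DKO.

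Markers of the cell types that such cultures can hold were summed in each library. The summed level of 18 trophoblast markers was 122 to 124 CPM at day 0, 76.0 to 93.2 in WT day 4, 127 to 143 in S3KO, 343 to 445 in S2KO and 753 to 772 in DKO, in the same order of groups at day 4 as Rhox6. Of 17 tested, 11 were called higher in S2KO (15.4% of all tested genes), 2 in S3KO (0.431%) and 16 in DKO (10.8%), and none lower by edgeR (0 at an unadjusted p under 0.05 and 0 by DESeq2 in each). The list's median log2 difference was 3.30 in S2KO, 0.97 in S3KO and 4.82 in DKO. Esx1 (4.82, adjusted p = 2.83e-05), Plet1 (3.44, adjusted p = 3.99e-05) and Tfap2c (2.73, adjusted p = 4.02e-05) led the list in DKO. The giant cell and spongiotrophoblast markers Prl3d1 and Tpbpa were at 0 in WT at both times and in S3KO. They thus passed the filter through S2KO or DKO and could not be called lower. Both are among the 16 in DKO, and Tpbpa is among the 11 in S2KO, so for them these counts support nothing. Elf5, among the 16 and the 11, was also near 0 in WT (0.058 CPM at day 4), so for it they support little. The list includes genes that embryonic stem cells also express, such as Tfap2c at 51.8 CPM at day 0. It shares Esx1 and Plac1 with the list of X-linked genes, and Gata3 and Elf5 with the list of Rhox5-linked regulators, so these lists are not independent.

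The other marker lists of pluripotent, endoderm and germ cells did not follow that order. Extraembryonic endoderm markers summed to 296 to 301 CPM at day 0, 2059 to 2197 in WT day 4, 1485 to 1552 in S3KO, 594 to 703 in S2KO and 1236 to 1466 in DKO. Naive pluripotency markers summed to 2757 to 2859 CPM at day 0, 577 to 589 in WT day 4, 320 to 326 in S3KO, 639 to 1160 in S2KO and 654 to 823 in DKO. Primed epiblast markers, among them Dnmt3b, summed to 897 to 1044 CPM at day 0 and 2298 to 2871 in WT day 4. They summed to 1414 to 1574 CPM in S3KO, 1155 to 1324 in S2KO and 597 to 656 in DKO. At day 4 this was the reverse of the order of the trophoblast sums, but the sums leaned on Dnmt3b. Dnmt3b alone held 1373 CPM in WT day 4, 620 in S3KO, 314 in S2KO and 205 in DKO, so this order largely repeats its own. By mean, Pou3f1, Fgf15, Cldn6, Tead2 and Utf1 stood higher in S2KO than in S3KO, and Fgf5, Otx2, Sall2 and Lef1 lower. Primordial germ cell markers, which share Tfap2c with the trophoblast list, summed to 300 to 314 CPM at day 0 and 188 to 196 in WT day 4. Their sums were 149 to 152 CPM in S3KO, 222 to 336 in S2KO and 304 to 336 in DKO. S2KO and DKO overlapped and both lay above WT day 4, while S3KO lay below it. Markers of Sertoli cells and epididymis, the adult sites of Rhox5, were low: they summed to 4.90 to 5.86 CPM at day 0, 2.06 to 3.42 in WT day 4, 4.62 to 5.90 in S3KO, 5.14 to 5.80 in S2KO and 6.73 to 7.08 in DKO, with S3KO and S2KO overlapping. Lcn5 was at 0 in every group and Fshr in all but S3KO. The part of these cell types in the Rhox levels was not tested.

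The tested genes outside the family whose log2 CPM profile over the 10 libraries was most like each gene were listed by Pearson r, as a description. For Rhox6 they included Tnni2, a troponin (r = 0.991), Anxa1, an annexin (0.988), Id2, a helix-loop-helix inhibitor (0.986), and the keratin Krt7 (0.979). Anxa1 stood at 10.5 CPM at day 0, 2.92 in WT day 4, 9.71 in S3KO, 47.3 in S2KO and 76.7 in DKO. For Rhox9 they were Anxa1 (0.989), Tnni2 (0.985), Itga7 (0.980), Id2 (0.979) and Fbp2 (0.976). Rhox5 had another set: the X-linked gene Klhl13 (0.975), a ubiquitin ligase adaptor, Zfp607b (0.970), Ddr2 (0.968), Anxa8 (0.958) and Tfap2c (0.958). Klhl13 stood at 178 CPM at day 0, 97.3 in WT day 4, 90.9 in S3KO, 177 in S2KO and 457 in DKO. An r of at least 0.95 was reached by 25 genes for Rhox6, 22 for Rhox9 and 8 for Rhox5.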

How the data were processed

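RNA was measured in 10 libraries, 2 for each of 5 groups set from the labels; the 14 ChIP samples were left out. The deposited RSEM gene tables hold expected counts, TPM and FPKM, estimated by the authors; the submitters' processing notes name RSEM, STAR, Bowtie2, FastQC 0.11.5, HOMER and mm10, with no role given. Strand setting and annotation version are not given in the sources used here. FPKM as deposited was not used. Libraries held 35733249 to 53672980 expected counts. With GENCODE M21, 53274 of 53379 gene IDs matched a symbol once versions were dropped.

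Expected counts were rounded, filtered with filterByExpr (19470 genes) and TMM-scaled, and the 5 groups were fitted together with edgeR 4.0.16 in R 4.3.3. Its quasi-likelihood F test was adjusted by Benjamini-Hochberg over all tested genes and called under 0.05 (residual df 5, prior df 4.33, common biological coefficient of variation 0.248). The fit was tested on simulated data. CPM in the text are edgeR's, per TMM-scaled total; TPM are the deposited values. Alternatives were RLE and library-total scaling, no filter, a stricter filter (CPM of 1 in 4 libraries), the compared groups alone, DESeq2 1.42.0, limma 3.58.1 on log2(TPM + 1) and log2(TPM + 0.1) for genes whose TPM averaged at least 1, an offset for trends with transcript length (a spline with 5 df), a replicate block, each library left out, and near copies summed, which was added after seeing the data. The members and gene lists were chosen with earlier results of these data known. Named genes were the members, the other tested Rhox genes, up to 3 called genes of each list with the smallest adjusted p and 1 called the other way, and the 5 genes most like each member among those with a mean CPM of at least 1; genes that this rule names but the text does not are not reported here. Sequences came from RefSeq on GRCm38.p6 and from mm10; 28 Rhox genes matched a RefSeq promoter window.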

Additional observations from a re-analysis of the deposited data

How the results depend on the processing

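Over 20 alternatives for each of 21 member differences (420 values), 372 moved by less than the spread, 36 moved by more and 12 changed sign, all of them for Rhox5. From day 0 to day 4 Rhox5 turned positive on log2(TPM + 1) (0.0782), log2(TPM + 0.1) (0.0796) and with the length offset (0.42). The length offset turned Rhox5 negative in S2KO against WT (-0.11) and against S3KO (-0.0355). In S3KO against WT it turned positive with library totals (0.11), the stricter filter (0.0123), the compared groups alone (0.0581), log2(TPM + 1) (0.13) and log2(TPM + 0.1) (0.13), and ranged from -0.1031 to 0.0367 when each library was left out. The cause was not tested.

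The number of genes called in S2KO, 6904, was 2461 with the compared groups alone and 3352 with the length offset, and 4571 (without S2KO replicate 1) to 8864 when each library was left out. The 4506 genes in DKO became 2778 with the compared groups alone and 2743 on log2(TPM + 0.1), and 2126 (without DKO replicate 1) to 6051, with 2166 without DKO replicate 2. From day 0 to day 4 leaving out libraries gave 6504 (without day 0 replicate 1) to 10979 of 10139. The 108 genes in S3KO became 191 with library totals, 1096 with no filter, 199 with the stricter filter, 757 by DESeq2, 54 on log2(TPM + 0.1), 165 with the length offset and 0 by edgeR on the compared groups alone (2421 of 17997 at an unadjusted p under 0.05). Leaving out each library gave 3 (without S3KO replicate 1) to 2709 (without WT day 4 replicate 2).

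Of the other Rhox genes, 5 were called from day 0 to day 4, with 2 under the stricter filter, 3 on log2(TPM + 1) and 3 on log2(TPM + 0.1), where fewer were tested, and 4 to 6 when each library was left out. The 6 in S2KO became 2 under the stricter filter, 2 with the compared groups alone, 2 on log2(TPM + 1), 3 on log2(TPM + 0.1) and 3 with the length offset, and 4 to 5 without a library. The 1 in S3KO became 3 with no filter, 0 under the stricter filter, 0 with the compared groups alone and 2 by DESeq2, and 0 to 2 without a library. The 9 in DKO became 2 under the stricter filter, 3 on log2(TPM + 1) and 3 on log2(TPM + 0.1), and 5 (without either DKO library) to 9.

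The replicate numbers do not pair the libraries by any label. Deviations of same-numbered libraries correlated at 0.113 to 0.51 between the groups other than DKO, in which the number follows the name series. Pairs with DKO gave -0.18 to -0.035. DKO replicate 2 lies in the first name series, so a block by number sets it with libraries of the second. With the replicate number as a block, 10357, 7206, 99 and 4571 genes were called in the 4 comparisons, and 5, 5, 1 and 8 of the other Rhox genes. For genes with few counts, such as Rhox10 and Rhox12, depth limits the precision of any ratio.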
